A study of Mus musculus with 38 samples.

Results

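Chronic stress in mice was followed here through 7 genes of the endocannabinoid system, taken by symbol from a table of 25230 genes measured in 38 libraries. They were the receptor gene Cnr1, the anandamide enzymes Napepld and Faah, the 2-arachidonoylglycerol (2-AG) synthases Dagla and Daglb, and the 2-AG hydrolases Mgll and Abhd6. All 7 were among the 16309 genes abundant enough to be tested, so none was lost to the filter on low counts. The tissue was adBNST (the bed nucleus of stria terminalis, anterodorsal), a relay between limbic forebrain and the hypothalamic control of stress hormones. The mice were wild type (WT); the sources used here give neither strain nor age. Stressed mice had 6 weeks of chronic variable mild stress, with stressors such as cold, wet bedding, forced swim, isolation, restraint and disturbed light in random order. Control mice had none of these. There were 9 libraries of stressed males, 10 of control males, 9 of stressed females and 10 of control females, and the series asked how sex, condition and their interaction alter expression. Libraries carry numbers within a group, and no label says whether 1 library is 1 animal, so p-values measure the spread between libraries, which may be technical.

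Endocannabinoids are lipid messengers made on demand in the postsynaptic cell. They travel back across the synapse and act on the CB1 receptor, the product of Cnr1, which lowers transmitter release from the presynaptic terminal. The main messengers are anandamide, which is made by Napepld among other enzymes and broken down by Faah, and 2-AG, which is cut from diacylglycerol by Dagla and Daglb and broken down mainly by Mgll, with Abhd6 and Abhd12 taking smaller shares. In limbic regions, the system is known for dampening responses to stress and for adapting when stress is repeated.

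Of the 7 genes, 6 had promoter entries among the RefSeq sequences of GRCm38.p6 used here, and Dagla was not among them. Windows of 3 genes are shown, each from 250 bases before to 50 bases after a transcript start: Cnr1 and Faah, whose levels ran opposite ways across the libraries, and Mgll, which varied most. Capitals mark the letters searched for: CACGTG, the E-box read by clock and related factors; AGAACA, a hexamer of glucocorticoid receptor sites; and GGGCGG, the GC box. Each was searched on both strands, so AGAACA on the opposite strand appears as TGTTCT and GGGCGG as CCGCCC. No pair of the 3 shown overlaps.
Cnr1 promoter, + strand, chr4:33924394-33924693: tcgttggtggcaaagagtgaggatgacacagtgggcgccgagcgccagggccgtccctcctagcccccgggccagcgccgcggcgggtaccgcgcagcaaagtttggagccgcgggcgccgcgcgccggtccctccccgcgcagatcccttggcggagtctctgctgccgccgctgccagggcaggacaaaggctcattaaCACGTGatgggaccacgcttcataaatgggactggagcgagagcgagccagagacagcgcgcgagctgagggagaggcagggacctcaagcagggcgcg
Faah promoter, - strand, chr4:116017875-116018174: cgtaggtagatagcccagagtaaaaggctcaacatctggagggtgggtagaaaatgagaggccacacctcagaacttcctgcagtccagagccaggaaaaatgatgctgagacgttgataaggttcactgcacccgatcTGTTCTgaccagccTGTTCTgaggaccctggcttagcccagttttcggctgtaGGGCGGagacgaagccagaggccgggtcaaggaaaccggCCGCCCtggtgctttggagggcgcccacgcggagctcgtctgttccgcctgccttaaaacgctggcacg
Mgll promoter, + strand, chr6:88724162-88724461: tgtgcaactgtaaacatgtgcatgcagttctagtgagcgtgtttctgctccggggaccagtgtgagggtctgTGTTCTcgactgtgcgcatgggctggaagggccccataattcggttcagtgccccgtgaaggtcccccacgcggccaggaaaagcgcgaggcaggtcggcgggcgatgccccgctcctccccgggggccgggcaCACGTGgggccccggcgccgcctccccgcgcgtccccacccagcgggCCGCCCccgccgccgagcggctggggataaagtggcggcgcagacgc
The Cnr1 window, the second of 3 RefSeq starts of that gene, held 1 E-box, beginning 49 bases before the start, and its GC content was 69.0%. The other Cnr1 windows, not shown, held no E-box. The first had GC boxes and a GC content of 76.3%, and the third held none of the letters searched for, with a GC content of 46.3%. In the Faah window there were 2 AGAACA hexamers on the opposite strand, 111 and 97 bases before the start, and 2 GC boxes, with a GC content of 57.7%. The Mgll window held 1 E-box 44 bases before the start, 1 AGAACA hexamer and 1 GC box, with a GC content of 70.0%. Over 32851 promoter windows of the same length, 7.15% held CACGTG, 19.0% AGAACA and 35.7% GGGCGG, and the median GC content was 52.7%. The full cAMP response element TGACGTCA (1.79% of windows) and the TATA box TATAAA (13.6%) were found in none of the 10 windows of the 6 genes, and TGACG, the core of the full element (20.8%), in 1, the second Mgll window. Such matches describe letters and not binding.

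The genes lie on 5 chromosomes in GRCm38, the assembly that mm10 names. The GENCODE M21 annotation places Cnr1 at chr4:33924593-33948831 on the + strand and Faah at chr4:115967145-116017926 on the - strand. Napepld (chr5:21662901-21701396, - strand) and Daglb (chr5:143464584-143505942, + strand) share chromosome 5, while Dagla lies at chr19:10245265-10304877 on the - strand, Mgll at chr6:88724412-88828360 on the + strand and Abhd6 at chr14:8002902-8056763 on the + strand. Counts were given per gene, over all its exons. Daglb is less certain than the other genes: 2309 bases of its exons overlap exons of Rac1 on the opposite strand, the sources used here do not give the strand setting of the counting, and Rac1 stood at 292 to 555 CPM. Mgll overlaps an antisense gene, Gm26588, over 167 exonic bases.

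Total counts ran from 15.9 to 36.1 M in stressed males, 9.1 to 84.8 M in control males, 14.6 to 35.3 M in stressed females and 18.1 to 33.8 M in control females. Levels are given as CPM, a gene's counts scaled to a common library size after TMM normalization. All 6 genes listed as BNST markers, 5 neuropeptide genes and the kinase gene Prkcd, were above 0 in every library. Their levels ran from those of Crh (4.72 to 39.3 CPM) to those of Penk (431 to 3027 CPM). A level above 0 does not show how much of a dissection was BNST. Summed GABA neuron markers ran from 1399 to 2521 CPM against 12.3 to 80.9 CPM for glutamate neuron markers. All 13 marker lists had all their members among the genes tested, including striatal projection neurons (702 to 4501 CPM summed) and septum (36.8 to 181 CPM), and the part of neighbouring tissue in the results was not tested beyond the covariates below. There were 5 libraries rich in myelin transcripts (male control 3, female stressed 1 and 2, female control 1 and 6; Mbp at 9034 to 13349 CPM against 1830.1 to 6429 CPM in the other 33). Choroid plexus transcripts marked male stressed 5. Libraries numbered 6 to 10 also differed from those numbered 1 to 5 at 7414 genes. In these bulk samples, fewer cells of a type and less RNA per cell cannot be told apart.

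Per kilobase of exon, Mgll and Cnr1 were the most abundant of the 7 genes and Napepld and Daglb the least. Mgll averaged 22.7 ± 6.18 CPM per kb (SD, n = 38 libraries) and Cnr1 19.1 ± 4.48, above 86.7% and 83.7% of the genes tested. Abhd6 and Dagla followed at 15.8 ± 1.65 and 14.1 ± 3.04 CPM per kb. Faah, at 4.98 ± 1.01, lay next to the median over genes of 5.09 CPM per kb. Napepld stood at 3.11 ± 0.422 and Daglb at 2.79 ± 0.457 CPM per kb. The order of neighbours was not the same in every library: Mgll exceeded Cnr1 in 26 of 38, Cnr1 exceeded Abhd6 in 30, Abhd6 exceeded Dagla in 26 and Napepld exceeded Daglb in 28. The step between the upper 4 genes and the lower 3 was clear, since Dagla exceeded Faah in 38 of 38 libraries, and Faah exceeded Napepld in 37 of 38. With the length of the longest transcript in place of all exons, Daglb stood above Napepld (5.48 against 3.11 CPM per kb).

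Of the 2-AG enzymes compared here, Dagla led Daglb and Mgll led Abhd6. For anandamide, Napepld and Faah were set only against each other. Dagla exceeded Daglb, the other 2-AG synthase, by 2.33 ± 0.26 on the log2 scale of CPM per kb (mean ± SD over 38 libraries), and it did so in every library; with the longest transcript of each gene as its length, the lead was 1.38. Mgll, the main 2-AG hydrolase, exceeded Abhd6 by 0.49 ± 0.31, again in 38 of 38. Enzymes outside these comparisons can stand higher. Without scaling to length, the 2-AG hydrolase Abhd12 averaged 233 ± 42.4 CPM, against 115 ± 31.4 CPM for Mgll (SD over 38 libraries). Gde1, of an alternative anandamide route, averaged 116 ± 17.2 CPM, against 12.3 ± 1.67 CPM for Napepld. For the balance of 2-AG synthesis over hydrolysis, the log2 ratio of Dagla to Mgll was -0.52 ± 0.19 in stressed males, -0.76 ± 0.25 in control males, -0.79 ± 0.25 in stressed females and -0.63 ± 0.14 in control females. The corresponding anandamide ratio, Napepld to Faah, was -0.62 ± 0.34 in stressed males, -0.78 ± 0.56 in control males, -0.57 ± 0.22 in stressed females and -0.68 ± 0.27 in control females. The mean Dagla to Mgll transcript ratio was thus higher in stressed than control males and lower in stressed than control females. Its lowest values in stressed females and control males were those of myelin-rich libraries, female stressed 2 (-1.31) and male control 3 (-1.29). The transcript-length measure described below had the same order of group means within each sex, and its part in the ratio was not tested. The mean Napepld to Faah ratio was higher in stressed libraries of both sexes. These SDs describe single libraries and not the error of a mean, and differences in the ratios between groups were not tested. The evenest gene was Abhd6, with a coefficient of variation of 10.5% over the 38 libraries, and the most variable was Mgll at 27.2%, against a median of 23.8% over genes.

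**Figure D1:**
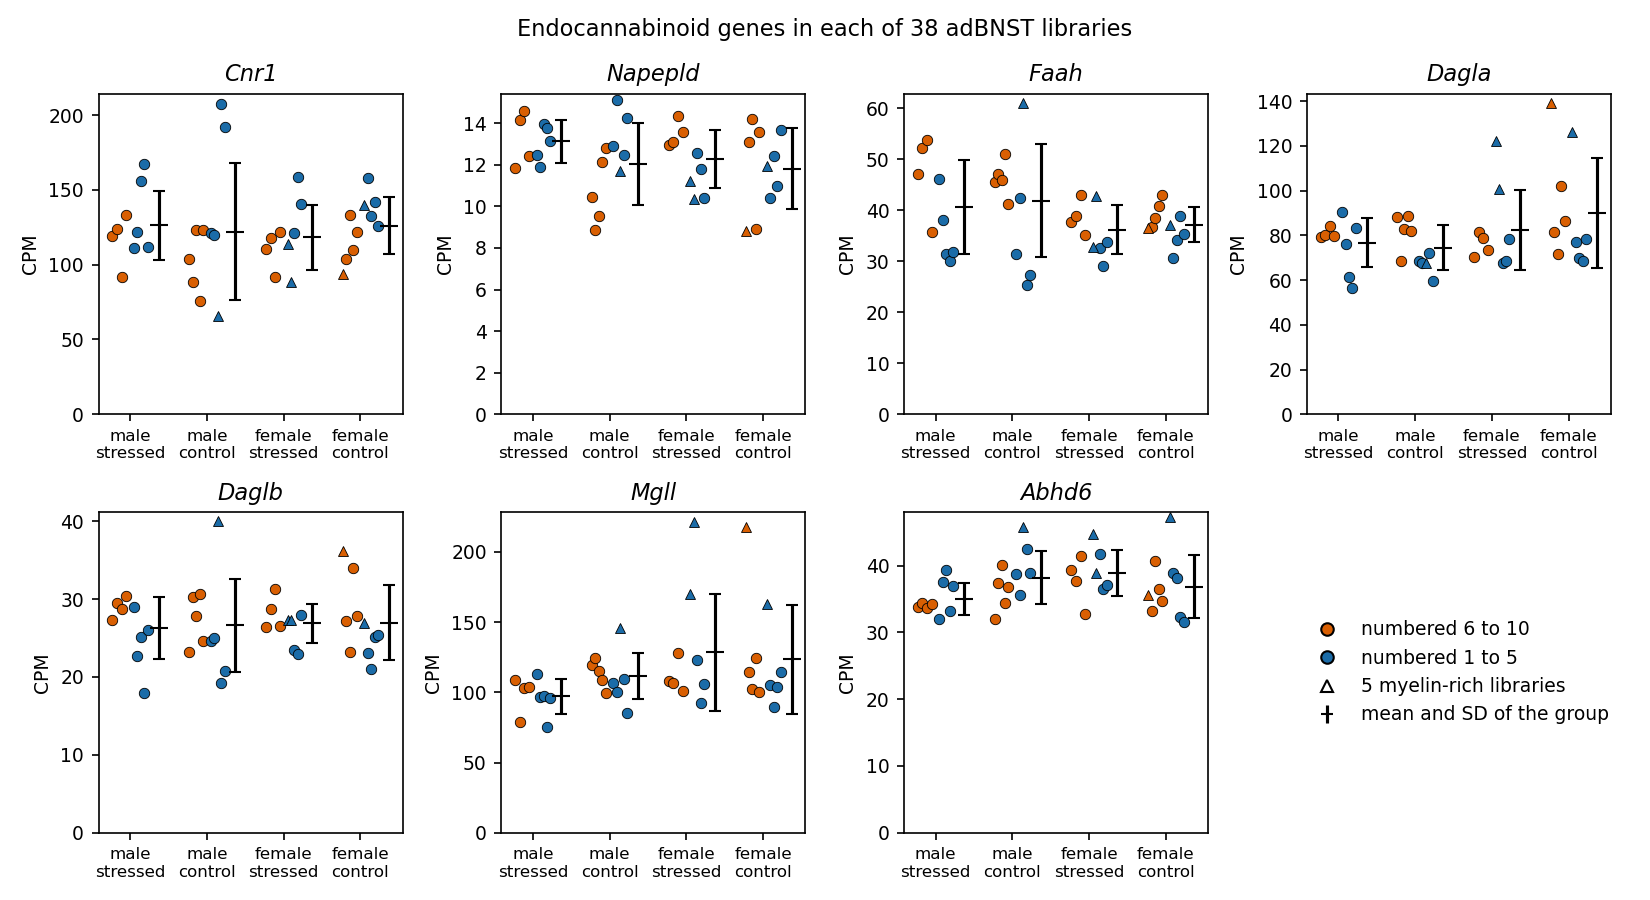
Level of each gene (CPM, linear axis from 0) in every library, by group, with the mean and SD of the group beside the points. Colours mark the libraries numbered 6 to 10 and 1 to 5, and triangles mark the 5 myelin-rich libraries; the stressed and control points overlap for every gene, and the 5 highest Mgll values are triangles.

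Whether chronic stress altered these genes was asked in each sex with edgeR's quasi-likelihood test over all 16309 genes. No change was detected for any of the 7 genes in either sex, and stressed and control libraries overlapped for each of them. The share of all genes called was 0% in males and 0% in females at an adjusted p under 0.05, so the count of 0 of 7 is that of the whole table. At an unadjusted p under 0.05 there were 655 genes in males and 308 in females, 0 of them among the 7. DESeq2 and limma voom also called 0 of the 7. Over the 7 genes, the fitted change ran from -0.20 to 0.13 in males and from -0.13 to 0.077 in females (log2 of stressed over control). Their median was -0.014 in males and -0.0056 in females, beside -0.022 in males and 0.0098 in females over all genes tested. In this fit, the 95% intervals of the 7 genes in both sexes reached no lower than 0.710-fold (Mgll in males) and no higher than 1.28-fold (Cnr1 in males). They do not cover the choice of model. With the transcript-length measure described below as a covariate, Mgll in males stood at 0.105 (log2), above the upper limit of 0.096 here.

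Cnr1, which encodes the CB1 receptor, showed the widest spread among control males. Cnr1 stood at 91.5, 122 and 167 CPM (lowest, median and highest library) in stressed males, against 65.7, 120.4 and 207 CPM in control males. Female libraries ran to 88.3, 118 and 158 CPM in stressed females and 93.7, 129 and 158 CPM in control females. Control males thus held both the lowest library of all, number 3, and the highest, number 4. The stress difference was 0.048 ± 0.15 (95% interval -0.26 to 0.36) in males and -0.093 ± 0.15 (95% interval -0.41 to 0.22) in females on the log2 scale (edgeR, adjusted p = 0.955 in males and 1 in females). Without male control 4 the value in males was 0.18, and without male control 3 it was -0.013, so a single library moved it across 0. Without the 5 myelin-rich libraries it was -0.017 ± 0.15.

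Of the anandamide enzymes, Napepld varied little and Faah varied more in males than in females. Napepld stood at 11.8, 13.1 and 14.6 CPM (lowest, median and highest library) in stressed males, against 8.87, 12.3 and 15.1 CPM in control males. Among females these values were 10.4, 12.6 and 14.3 CPM in stressed females and 8.83, 12.2 and 14.2 CPM in control females. The medians of this synthetic enzyme differed by less than 1 CPM between stressed and control libraries of either sex. The change was 0.13 ± 0.0996 (95% interval -0.073 to 0.33) in males and 0.055 ± 0.0998 (95% interval -0.15 to 0.26) in females (edgeR, adjusted p = 0.863 in males and 1 in females). Faah stood at 30.0, 38.2 and 53.8 CPM (lowest, median and highest library) in stressed males, against 25.3, 44.0 and 61.1 CPM in control males. For female libraries they were 29.0, 35.2 and 43.1 CPM in stressed females and 30.6, 36.9 and 43.1 CPM in control females. Male libraries of this hydrolase thus spanned the whole range of the series, and female libraries a narrower band within it. Its change was -0.036 ± 0.13 (95% interval -0.30 to 0.22) in males and -0.039 ± 0.13 (95% interval -0.30 to 0.22) in females (edgeR, adjusted p = 0.960 in males and 1 in females).

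For the 2-AG synthases, no change with stress was detected either. Dagla stood at 56.5, 79.5 and 90.5 CPM (lowest, median and highest library) in stressed males, against 59.6, 70.4 and 88.6 CPM in control males. Females gave 67.8, 78.2 and 122 CPM in stressed females and 68.4, 79.8 and 139 CPM in control females. High values of Dagla, the main synthase of adult brain, belonged to a few female libraries. The stress difference was 0.042 ± 0.13 (95% interval -0.21 to 0.30) in males and -0.13 ± 0.13 (95% interval -0.38 to 0.13) in females (edgeR, adjusted p = 0.950 in males and 1 in females). Daglb stood at 17.9, 27.3 and 30.4 CPM (lowest, median and highest library) in stressed males, against 19.2, 24.8 and 40.1 CPM in control males. In females they stood at 23.0, 27.3 and 31.3 CPM in stressed females and 20.99, 26.1 and 36.1 CPM in control females. Stressed and control libraries of this second synthase overlapped in both sexes, with the highest library among controls in each. Its differences were -0.014 ± 0.11 (95% interval -0.24 to 0.21) in males and -0.0056 ± 0.11 (95% interval -0.23 to 0.22) in females (edgeR, adjusted p = 0.986 in males and 1 in females).

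Mgll and Abhd6, the 2-AG hydrolases, gave the lowest fitted values in males, and these too did not pass. Mgll stood at 75.4, 97.6 and 113 CPM (lowest, median and highest library) in stressed males, against 85.1, 109 and 146 CPM in control males. The female groups had 92.1, 108 and 221 CPM in stressed females and 89.8, 109.8 and 218 CPM in control females. The highest female values were those of myelin-rich libraries, number 2 among stressed and number 6 among control females. The difference was -0.20 ± 0.15 (95% interval -0.49 to 0.096) in males and 0.057 ± 0.15 (95% interval -0.24 to 0.35) in females (edgeR, adjusted p = 0.863 in males and 1 in females). Abhd6 stood at 32.0, 34.3 and 39.4 CPM (lowest, median and highest library) in stressed males, against 31.9, 38.1 and 45.7 CPM in control males. Female values were 32.7, 38.9 and 44.7 CPM in stressed females and 31.6, 36.0 and 47.2 CPM in control females. Stressed males formed the tightest group of this second hydrolase, inside the range of control males. Abhd6 gave -0.12 ± 0.073 (95% interval -0.27 to 0.023) in males and 0.077 ± 0.073 (95% interval -0.070 to 0.23) in females (edgeR, adjusted p = 0.863 in males and 1 in females).

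**Figure D2:**
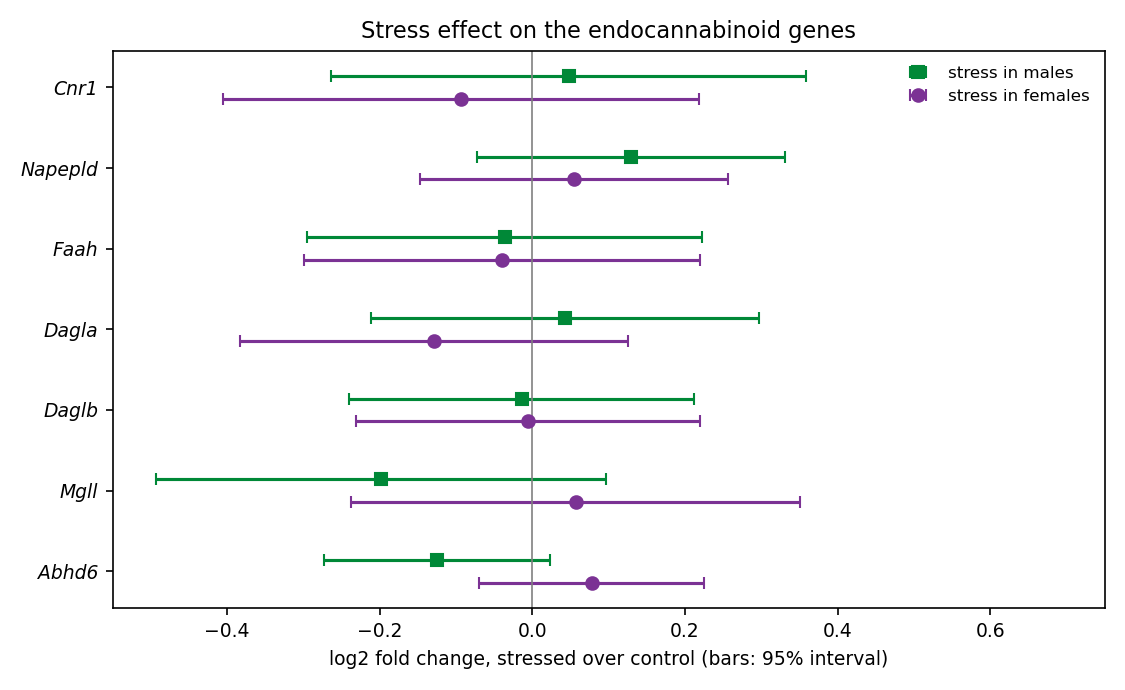
Stress effect (log2 of stressed over control, with 95% intervals from edgeR) for each gene in males (squares, above) and females (circles, below). All 14 intervals include 0.

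The stress effects of the sexes were also compared with each other, and averaged. For the difference, males minus females, 0% of all genes and 0 of the 7 passed, with 736 genes at an unadjusted p under 0.05 and 0 of the 7 among them. Abhd6 came nearest, at -0.20 ± 0.10 (95% interval -0.41 to 0.0068) (unadjusted p = 0.0576, adjusted p = 0.845 by edgeR), followed by Mgll at -0.26 ± 0.21 (95% interval -0.67 to 0.16). Averaged over the sexes, again 0% of genes and 0 of the 7 passed, with 239 genes and 0 of the 7 at an unadjusted p under 0.05. The largest average was that of Napepld at 0.092 ± 0.070 (95% interval -0.051 to 0.23).
Within the number sets, some stress values took opposite signs. In females, Mgll gave -0.25 ± 0.18 among libraries numbered 6 to 10 and 0.31 ± 0.20 among those numbered 1 to 5, and Dagla gave -0.34 ± 0.14 in numbers 6 to 10 and 0.062 ± 0.18 in numbers 1 to 5. In males, Cnr1 gave 0.18 ± 0.15 in numbers 6 to 10 and -0.080 ± 0.23 in numbers 1 to 5, and Napepld 0.30 ± 0.16 in numbers 6 to 10 and -0.028 ± 0.11 in numbers 1 to 5. Mgll and Abhd6 in males had a negative value in both sets. For Mgll it was -0.20 ± 0.18 in numbers 6 to 10 and -0.19 ± 0.20 in numbers 1 to 5, and for Abhd6 -0.086 ± 0.095 in numbers 6 to 10 and -0.17 ± 0.11 in numbers 1 to 5. No within-set value passed (edgeR, adjusted p of 0.844 or more in males and 0.915 or more in females).

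Males and females did not differ in these genes beyond the threshold. Among stressed mice, 0.0858% of all genes passed (14 of 16309) and 0 of the 7. Mgll came nearest: with 97.1 ± 12.6 CPM in stressed males (SD, n = 9) and 129 ± 41.6 CPM in stressed females (SD, n = 9), its difference was -0.40 ± 0.15 (95% interval -0.71 to -0.10), with an unadjusted p of 0.0102 and an adjusted p of 0.378 in edgeR. Abhd6 gave -0.15 ± 0.075 (adjusted p = 0.448), and these were the 2 of 7 with an unadjusted p under 0.05, against 1816 of all genes. Without the 5 myelin-rich libraries the Mgll value was -0.17 ± 0.083; it was -0.11 with the transcript-length measure described below as a covariate, -0.26 without female stressed 2, -0.17 ± 0.19 within numbers 6 to 10 and -0.56 ± 0.20 within numbers 1 to 5. Both myelin-rich libraries of this comparison were stressed females, whose summed oligodendrocyte markers reached 25538 CPM, against at most 15028 CPM in stressed males; their part in the result was not tested.
In control mice, 0.0674% of genes passed (11 of 16309) and again 0 of the 7. Dagla was the 1 gene of 7 with an unadjusted p under 0.05 (679 over all genes), at 74.5 ± 10.0 CPM in control males and 90.1 ± 24.6 CPM in control females (SD, n = 10 each). Its difference was -0.27 ± 0.12 (95% interval -0.52 to -0.025), with an adjusted p of 1.000 in edgeR. Without female control 6, the highest library for Dagla, it was -0.18, and without the 5 myelin-rich libraries -0.082 ± 0.088.

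No other gene of the pathway passed for stress or sex either. A list of 30 further symbols held other lipid receptors, receptor partners, alternative synthetic and degrading enzymes, lipid carriers and the receptors that trigger 2-AG release. Of these, 26 were tested, 3 (Cnr2, Gpr18 and Gpr119) were too low, and Hrasls is not a row of the table under that symbol. In each of the 4 stress contrasts and both sex contrasts 0 of 26 passed. At an unadjusted p under 0.05 there were 4 of 26 for stress in males, 1 in females, 1 for their difference, 1 for the average, and 3 in each sex contrast. Over all 16309 genes these counts were 655 for stress in males, 308 in females, 736 for their difference and 239 for the average. The sex contrasts had 1816 in stressed mice and 679 in controls. Cnr2, which encodes the CB2 receptor of immune cells, never exceeded 13 counts and had 0 in 7 libraries. The most abundant gene of each role gave these stress differences, all with an edgeR adjusted p of 0.863 or more. The lysophospholipid receptor Gpr55 gave 0.30 ± 0.22 in males and 0.25 ± 0.22 in females. For Sgip1, whose product binds the CB1 receptor, the values were 0.12 ± 0.13 in males and 0.055 ± 0.13 in females. Gde1, a phosphodiesterase of an alternative anandamide route, gave -0.21 ± 0.093 in males and -0.038 ± 0.093 in females. The third 2-AG hydrolase, Abhd12, gave -0.16 ± 0.11 in males and 0.039 ± 0.11 in females, and the lipid carrier Fabp5 -0.24 ± 0.17 in males and 0.082 ± 0.17 in females. Grm5, a metabotropic glutamate receptor that triggers 2-AG synthesis, gave 0.088 ± 0.21 in males and 0.055 ± 0.21 in females.

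Although no group difference passed, the 7 genes moved against and with each other from library to library. Levels were compared as log2 CPM (prior count 2) after centring on each group and number set, so that none of those differences enters, and the correlations below are descriptions over 38 libraries; both genes of a pair share the depth, dissection and RNA quality of each library, and these differed between libraries. Cnr1 ran opposite to Faah, the hydrolase of one of its own ligands: Pearson's r was -0.80 (Spearman's rho -0.65). It was -0.49 within numbers 6 to 10 and -0.89 within numbers 1 to 5, and -0.65 without the 2 libraries farthest out. Male control 4 had 207 CPM of Cnr1 and 25.3 of Faah, while male control 3 had 65.7 CPM of Cnr1 and 61.1 of Faah. Cnr1 also ran opposite to Daglb (r = -0.76, rho = -0.64), and Faah and Daglb ran together (r = 0.67, rho = 0.52). The relation of Cnr1 to Daglb was -0.57 within numbers 6 to 10 and -0.82 within numbers 1 to 5. That of Faah to Daglb was 0.15 within numbers 6 to 10 and 0.83 within numbers 1 to 5, and 0.43 without the 2 libraries farthest out, so it was strong in 1 number set. Dagla and Mgll, which make and break 2-AG, ran together at r = 0.75 and rho = 0.66, with 0.72 within numbers 6 to 10 and 0.77 within numbers 1 to 5. The enzymes of anandamide, Napepld and Faah, stood near 0 (r = -0.076).

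**Figure D3:**
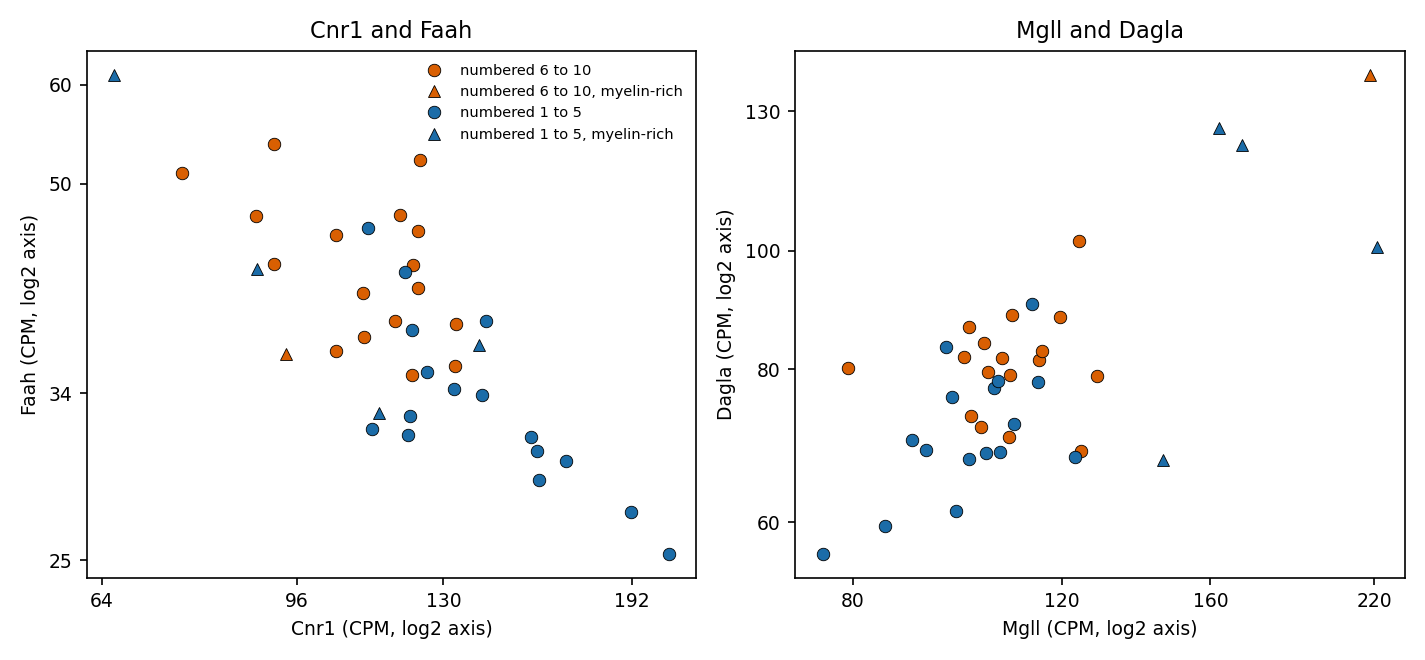
Each point is 1 of 38 libraries, with Cnr1 against Faah on the left and Mgll against Dagla on the right (CPM, both axes log2). Faah is highest where Cnr1 is lowest, and 4 of the 5 myelin-rich libraries (triangles) lie at the upper right of the Mgll and Dagla plot.

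The levels also moved with a property of the whole library. For each library, the rank correlation over genes between transcript length and the deviation from the mean level was taken; it is higher where long transcripts are over-represented. Mgll ran against this measure (r = -0.85, rho = -0.80), and so did Daglb (-0.61), Dagla (-0.57) and Faah (-0.57), while Cnr1 ran with it (0.68). Napepld (0.40) and Abhd6 (-0.38) were less tied to it. The ribosomal RNA precursor Rn45s moved the other way, with r = 0.77 for Mgll and -0.67 for Cnr1. With the length measure taken out by regression, Cnr1 and Faah stood at r = -0.69, Cnr1 and Daglb at -0.59, Faah and Daglb at 0.49 and Dagla and Mgll at 0.62. Cnr1 and Mgll, at -0.58 before, stood at -0.019, and Daglb and Mgll at 0.20 against 0.61. By group, the measure averaged 0.17 ± 0.11 in stressed males, -0.050 ± 0.22 in control males, -0.012 ± 0.25 in stressed females and 0.066 ± 0.18 in control females (SD). With it as a covariate, the stress value in males was 0.11 for Mgll, -0.16 for Cnr1, 0.13 for Faah and 0.15 for Daglb. All of these were of the opposite sign to the values above. The other genes kept their sign in males, with Dagla at 0.22 against 0.042 above. None was past the threshold.

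**Figure D4:**
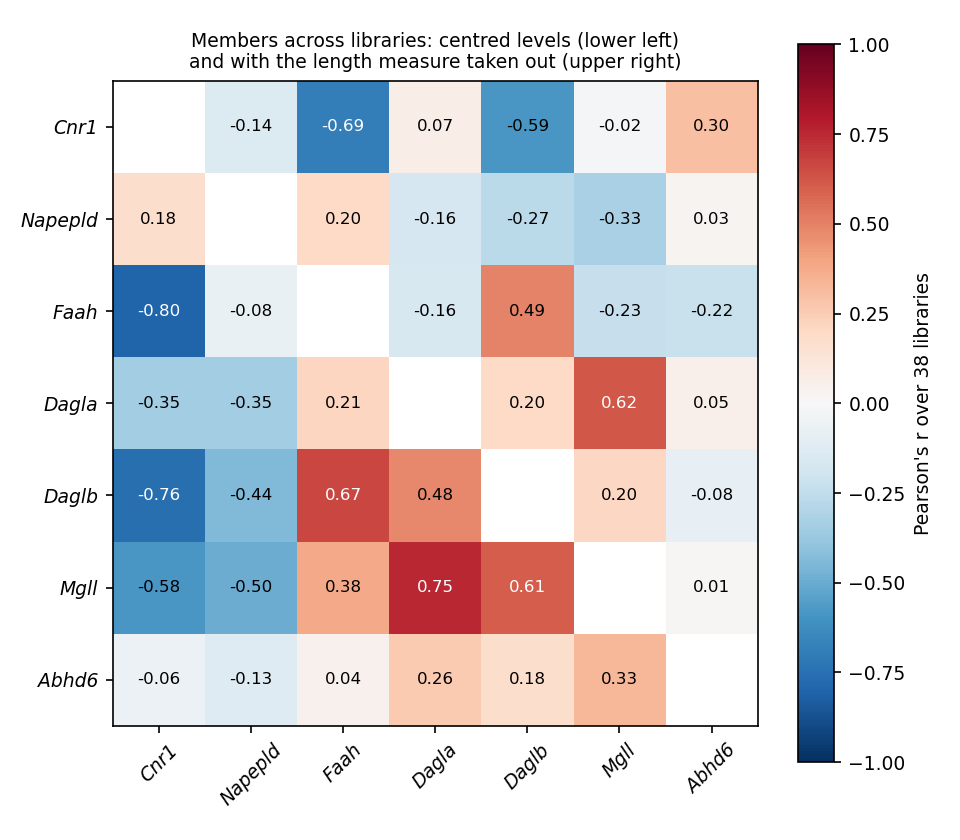
Pearson's r between the 7 genes over 38 libraries, on levels centred on group and number set (lower left) and after the transcript-length measure of each library was taken out (upper right). Cnr1 with Faah and Daglb stays blue on both sides, while Cnr1 with Mgll fades from -0.58 to -0.019.

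Mgll was highest in the libraries richest in myelin transcripts, but it did not follow them in every library. The 5 myelin-rich libraries held the 5 highest Mgll levels, 146 to 221 CPM, against 75.4 to 128 CPM in the other 33. They also held 4 of the 5 highest Dagla levels (67.4 to 139 against 56.5 to 102 CPM) and none of the 5 highest Cnr1 levels (65.7 to 139.9 against 75.6 to 207 CPM). Against the mean of the 8 oligodendrocyte markers, centred likewise, Mgll gave r = 0.72 (rho = 0.65). Before centring, that mean was 9.54 log2 CPM in male stressed 4 and 9.56 in female control 5, near the 9.62 of myelin-rich female control 1. Mgll stood at 75.4 CPM in male stressed 4, its lowest library, and at 114 CPM in female control 5. The length measure was 0.27 in male stressed 4 and 0.037 in female control 5. Neuron markers moved likewise: against 4 general neuron markers Mgll gave r = 0.68 and Dagla 0.82. RNA measures moved with myelin in the 5 libraries. Their length measure, described above, ran from -0.40 to -0.24, against -0.42 to 0.33 in the other 33, and Rn45s took 1.09 to 4.81% of their counts, against 0.121 to 2.79%. The parts of myelin and of these measures in the Mgll level cannot be told apart from these values. Without the 5 libraries, Dagla and Mgll stood at r = 0.60 and Cnr1 and Faah at -0.72. Napepld was set apart by its neighbours, with r = 0.66 against glutamate neuron markers and 0.64 against septal markers, both of which ran low in most libraries. Against the BNST markers, Mgll and Abhd6 each gave r = 0.58. Against the striatal markers Mgll gave 0.53, Dagla 0.48, Napepld -0.48 and Faah -0.43. Which cells carried these transcripts was not tested.

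The genes whose levels most resembled each of the 7 over the 38 libraries were of different kinds. For Cnr1 they were Atf2, Man2a1, Xiap, Crebrf and Neto2, with Pearson's r of 0.94 for the first and 0.92 for the fifth. For Faah they were Doc2a, Tmem145, Vwa5b2, Mapk11 and Arhgef25, with Pearson's r of 0.91 for the first and 0.87 for the fifth. Dagla lay nearest Iqsec2, Ajap1, Sipa1l3, Zswim4 and Pacsin1, with Pearson's r of 0.93 for the first and 0.90 for the fifth, and Daglb nearest Smpd1, Pigt, Coro1c, Dbnl and Slc38a10, with Pearson's r of 0.90 for the first and 0.86 for the fifth. For Mgll the list was Ramp1, Psd, Neurl1a, Rasl10b and Ftl1, with Pearson's r of 0.96 for the first and 0.95 for the fifth. Napepld and Abhd6 had looser neighbours. Napepld was nearest Neurod1, Slc17a6, Abitram, Plch1 and Pzp, with Pearson's r of 0.78 for the first and 0.71 for the fifth, the first 2 of these being a transcription factor and the vesicular transporter of glutamate neurons. Abhd6 was nearest Pgrmc2, Fam32a, Nsg2, Txndc12 and Stx8, with Pearson's r of 0.72 for the first and 0.69 for the fifth. With levels centred over all libraries at once, the number of these 5 that stayed among the nearest 5 was 3 for Cnr1, 1 for Napepld, 4 for Faah, 2 for Dagla, 4 for Daglb, 2 for Mgll and 2 for Abhd6.

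Among the comparisons between sets of libraries, some of the 7 genes passed in that of libraries numbered 6 to 10 with those numbered 1 to 5. This split held all 4 groups on both sides (18 and 20 libraries), and the labels do not give its origin. Cnr1 was lower and Faah and Daglb were higher in libraries numbered 6 to 10. Cnr1 averaged 110.4 ± 16.7 CPM in numbers 6 to 10 and 135 ± 32.9 CPM in numbers 1 to 5, a log2 difference of -0.29 ± 0.099 (95% interval -0.49 to -0.089) with an edgeR adjusted p of 0.0161. Faah averaged 42.8 ± 5.84 CPM in numbers 6 to 10 and 35.6 ± 8.04 CPM in numbers 1 to 5, a difference of 0.26 ± 0.080 (95% interval 0.098 to 0.42) with an adjusted p of 0.00772. Daglb averaged 28.6 ± 3.36 CPM in numbers 6 to 10 and 25.1 ± 4.59 CPM in numbers 1 to 5, with 0.19 ± 0.072 (95% interval 0.044 to 0.34) and an adjusted p of 0.0297. The lowest and highest libraries of the sets overlapped for all 3 genes, from 75.6 to 133 CPM of Cnr1 in numbers 6 to 10 against 65.7 to 207 CPM in numbers 1 to 5. The split was common in the table: 45.5% of all genes differed, 23.2% higher and 22.3% lower in numbers 6 to 10, so 3 of 7 lies near the background. Napepld (-0.020 ± 0.070), Dagla (0.11 ± 0.087), Mgll (-0.0070 ± 0.10) and Abhd6 (-0.091 ± 0.049) did not pass. Without the 5 myelin-rich libraries the values were -0.37 ± 0.087 (adjusted p = 0.000492) for Cnr1, 0.35 ± 0.069 (adjusted p = 4.82e-05) for Faah and 0.23 ± 0.059 (adjusted p = 0.000950) for Daglb, and Dagla also passed, at 0.18 ± 0.056 (adjusted p = 0.00728).

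Among the other 26 pathway genes, 9 differed between the sets, 1 higher and 8 lower in numbers 6 to 10, a share below the 45.5% of all genes tested. The lower ones included genes upstream of 2-AG release. Homer1, a postsynaptic scaffold whose short form is induced by activity, gave -0.86 ± 0.13 (adjusted p = 1.10e-06) in edgeR. Grm5 was lower too, at -0.53 ± 0.12 (adjusted p = 0.000511). The phospholipase Plcb1, which makes the diacylglycerol that 2-AG is cut from, gave -0.30 ± 0.11 (adjusted p = 0.0277). Ptgs2 (COX-2), which oxidises endocannabinoids and is induced by activity, gave -0.63 ± 0.15 (adjusted p = 0.000811), and Fabp5 gave -0.49 ± 0.095 (adjusted p = 6.85e-05). Smaller differences were those of Plaat1 at -0.18 ± 0.065 (adjusted p = 0.0200) and Gdpd1 at -0.14 ± 0.049 (adjusted p = 0.0155), both of alternative anandamide routes. The single higher gene was Naaa, a lysosomal acid amidase, at 0.35 ± 0.067 (adjusted p = 5.22e-05). Tissue markers and RNA measures moved with the sets: summed striatal projection neuron markers had a median of 1378 CPM in numbers 6 to 10 and 2419 CPM in numbers 1 to 5, with 5513 CPM in numbers 6 to 10 and 11792 CPM in numbers 1 to 5 for oligodendrocyte markers. Rn45s took a median of 1.33% of counts in numbers 6 to 10 and 0.223% in numbers 1 to 5. With the striatal marker level as a covariate, the set difference was -0.20 ± 0.15 (adjusted p = 0.366) for Cnr1, 0.047 ± 0.11 (adjusted p = 0.787) for Faah and 0.20 ± 0.11 (adjusted p = 0.169) for Daglb, none of them past the threshold. Of the 8 further genes named, 2 still passed, Naaa at 0.48 ± 0.099 (adjusted p = 0.00259) and Gdpd1 at -0.23 ± 0.072 (adjusted p = 0.0298). Homer1 stood at -0.41 ± 0.17 (adjusted p = 0.0911), Grm5 at -0.35 ± 0.19 (adjusted p = 0.189), Ptgs2 at -0.15 ± 0.21 (adjusted p = 0.634), Fabp5 at -0.24 ± 0.13 (adjusted p = 0.186), Plcb1 at -0.14 ± 0.17 (adjusted p = 0.579) and Plaat1 at -0.15 ± 0.099 (adjusted p = 0.283), no longer past it. Under the same covariate Dagla and Mgll passed, at 0.40 ± 0.11 (adjusted p = 0.0191) and 0.36 ± 0.13 (adjusted p = 0.0461). The Daglb call was lost on leaving out female control 3, 6 or 9 or male control 4, with a lowest value of 0.16. Abhd6 passed on leaving out female control 4 or 5 (lowest value -0.12), and Plcb1 was lost without male control 4 or 5 (highest value -0.26).

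**Figure D5:**
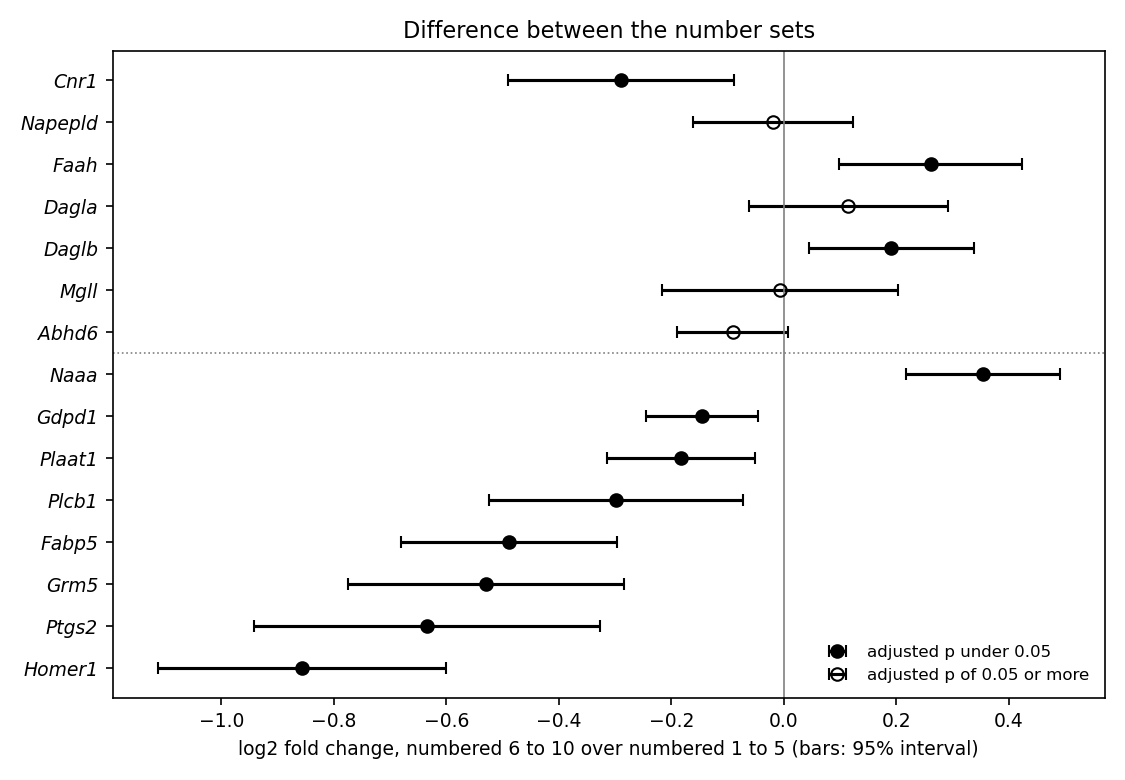
Log2 fold change of libraries numbered 6 to 10 over those numbered 1 to 5, with 95% intervals, for the 7 genes (above the dotted line) and the 8 further pathway genes named beside it that passed (below it). Filled points passed an adjusted p under 0.05: Cnr1 lies below 0 and Faah and Daglb above it, and 7 of the 8 further genes lie below 0.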

How the data were processed

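The authors deposited one table of raw read counts, with genes by symbol in rows and libraries in columns; whole numbers with unequal totals show that no scaling was applied. The submitters' processing notes name mm10 and the tools STAR, featureCounts and DESeq2, per the labels without versions; the sources used here do not give the annotation or strand setting. Per the labels' protocols, RNA was poly-A selected and libraries were stranded. All 38 columns were matched by name, leaving 0 over.

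Counts were filtered with filterByExpr, TMM-scaled and tested with edgeR 4.0.16 (quasi-likelihood, 4 group means, R 4.3.3), adjusted by Benjamini-Hochberg over 16309 genes with a threshold of 0.05. The fitting code was checked on simulated counts with the same dispersion for every gene. These had no differences between number sets or tissues, so the check does not show how the fit behaves on the real libraries. limma 3.58.1 and DESeq2 1.42.0 served as alternatives. The number-set comparison added a 2-level term and was, like its alternatives and the pair correlations, chosen after seeing the data. The 7 genes, the lists and the libraries named as myelin-rich were chosen with earlier results of these data known. Named further genes are those that passed and the most abundant of each role, with the 5 nearest genes of each of the 7; 1 pathway gene that passed between the number sets is counted but not reported here. Closest libraries of a group differed by a chi-square per gene of 7.83 or more, so none was merged. A single count was worth 0.012 to 0.11 CPM. Against log2 total counts, the centred levels of the 7 genes gave r from -0.35 (Mgll) to 0.26 (Cnr1). The part of depth in the levels was not tested.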

Additional observations from a re-analysis of the deposited data

How the results depend on the processing

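Across 51 alternatives (no low-count filter, RLE size factors, limma voom, DESeq2, a number-set term, either number set alone, the myelin-rich libraries or male stressed 5 left out, 3 covariates, the replicate block and 38 refits without a library each), 0 of the 7 genes passed in any stress or sex contrast, and 0 genes passed for stress. With the replicate number as a block, 0 of 7 passed and the largest log2 difference was 0.39; the same number went with correlations from -0.36 to 0.67 (28 of 37 pairs over 0.1, and 12 of 37 with the number set taken out); since not every pair was over 0.1, numbers were not taken as pairs. Genes passing for male minus female in stressed mice were 8 with numbers 1 to 5, 6 with numbers 6 to 10 and 40 with the oligodendrocyte covariate, against 14, and 9 to 15 without 1 library (lowest without female stressed 3). In controls they were 7 with numbers 1 to 5, 18 and 87 with the oligodendrocyte and length covariates, 30 with voom and 21 with DESeq2, against 11, and 9 to 15 without 1 library. For the number sets, 2380 genes passed with the striatal covariate, against 7414, and Mgll turned to 0.36 under that covariate; the cause was not tested. Cnr1 and Faah kept their sign and passed in 40 of 41 alternatives, Daglb in 36. The limits are the unstated strand setting (Daglb), unstated animals, the unexplained number split, and dissections that vary in myelin and striatal tissue. The intervals given above are not limits of detection, since a call required an adjusted p under 0.05 over all genes tested. For Mgll, male minus female in stressed mice, the interval of -0.71 to -0.10 left out 0. It still did not pass (edgeR, adjusted p = 0.378). The smallest change that could have been called was not estimated, and small changes may have been missed at this spread between libraries.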

Other observations

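Fabp7, a fatty acid carrier of astrocytes and their precursors that binds endocannabinoids, had the lowest unadjusted p for stress among the 26 further pathway genes, and is named here after its values were seen. It stood at 27.3 ± 3.39 CPM in stressed males and 35.0 ± 5.93 CPM in control males, and at 26.1 ± 6.25 CPM in stressed females and 31.0 ± 5.44 CPM in control females (SD, n = 9 for stressed and 10 for control groups). The stress difference was -0.36 ± 0.12 (95% interval -0.60 to -0.11) in males and -0.25 ± 0.12 (95% interval -0.49 to -0.0037) in females, and -0.30 ± 0.085 (95% interval -0.48 to -0.13) averaged over the sexes, with an unadjusted p of 0.00103 and an adjusted p of 1 in edgeR. Plcb4, a phospholipase of the same signalling route as Plcb1, stood at 87.0 ± 16.6 CPM in stressed males and 63.0 ± 17.1 CPM in control males, and at 55.2 ± 21.9 CPM in stressed females and 63.3 ± 20.5 CPM in control females. Its stress effects differed by 0.66 ± 0.30 (95% interval 0.061 to 1.26), males minus females (adjusted p = 0.845), and it too was picked after its values were seen.

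Faah ran opposite to the endothelial markers (r = -0.68, rho = -0.63 over 38 libraries on centred levels), which was -0.24 within numbers 6 to 10 and -0.83 within numbers 1 to 5. Napepld against glutamate neuron markers stood at 0.83 within numbers 6 to 10 and 0.38 within numbers 1 to 5.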
